A study of Mus musculus with 12 samples.

Results

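The ISG15 conjugation system was followed in IMG cells. These are immortalised microglia of the mouse, a model of the macrophages that live in the brain. Its 5 genes were chosen by name, Isg15, Uba7, Ube2l6, Herc6 and Usp18, and all 5 were found among the 41325 genes of the deposited tables. The 12 libraries came from wild type cells of C57Bl6/J origin, all taken at the same passage and exposed for 8 h. The 4 scramble libraries are the controls, and 4 libraries each were treated with an amyloid beta preparation called oAb or fAb in the labels. Amyloid beta is the peptide of the plaques in Alzheimer's disease. The design text attaches the word fibrillar to oAb and oligomeric to fAb, the reverse of how the abbreviations read, so the label names are used here. The cells are a single immortalised line, and no label ties the libraries of a group to separate cultures. The p-values therefore reflect only how far these libraries spread, and that spread may be technical.

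ISG15 is a small protein of the ubiquitin family that is switched on by type I interferon and can be attached to other proteins. Attachment runs through a chain of enzymes: UBA7 activates ISG15, UBE2L6 carries it, and HERC6 is the main mouse ligase that joins it to a target. USP18 removes ISG15 again, and also binds the interferon receptor and damps its signalling. All 5 genes are known interferon targets, so the modifier, its enzymes and its brake belong to the same programme.

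The upstream sequences of the genes are shown because all 5 genes rose after both preparations, though by very different amounts. Of the 5 members 4 were matched to RefSeq's promoter table (build GRCm38.p6, 250 bases before the start to 50 after it). Usp18, which rose 310.3-fold after oAb, was not matched, so its upstream sequence was not examined. Whether the motifs go with the size of the rise was not tested. The lines for Isg15, Ube2l6 and Herc6 hold the 120 bases before RefSeq's start of transcription, and the line for Uba7 holds 30 bases. That Uba7 stretch lies inside the GENCODE gene model, which begins at 107975505, so it is upstream of RefSeq's start only. Capitals mark matches to GAAA, any 2 bases and GAAA again, the core of the interferon-stimulated response element, on either strand. In Uba7 they mark the shorter AANNGAAA, a site for interferon regulatory factors that was added after the sequences were seen.
Isg15 (chr4:156200819-156200938, minus strand): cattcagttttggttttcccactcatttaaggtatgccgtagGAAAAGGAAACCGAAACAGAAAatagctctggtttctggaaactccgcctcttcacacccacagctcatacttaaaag
Ube2l6 (chr2:84798708-84798827, plus strand): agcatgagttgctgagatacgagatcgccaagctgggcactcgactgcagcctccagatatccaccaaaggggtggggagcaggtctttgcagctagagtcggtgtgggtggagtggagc
Herc6 (chr6:57580872-57580991, plus strand): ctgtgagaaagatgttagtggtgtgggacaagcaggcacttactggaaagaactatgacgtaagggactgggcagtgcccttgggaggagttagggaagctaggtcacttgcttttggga
Uba7 (chr9:107975529-107975558, plus strand): actcagtctagTTTCACTTttggtttcctg

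The Isg15 window held 3 overlapping matches to this core, which begin 78, 72 and 66 bases before the start and all lie on the strand of the gene. Of 32851 promoters in the table, 3.44% held a match. The windows of Uba7, Ube2l6 and Herc6 held no match to it. The shorter AANNGAAA, which every match to the longer motif contains, was found in 23.9% of promoters and in Isg15. It was also found in Uba7, 27 bases before RefSeq's start on the opposite strand, within the GENCODE gene model. Matches to GGGA, any base and TTTCC, an NF-kB site, were found in 0.411% of promoters and in none of the 4 windows. A missing match says only that these letters are not in this window.

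The libraries held 13638721 to 18124419 counts. Scramble library 3 stood apart, where genes for ribosomal proteins took 12.0% of the counts. They took 5.25% to 7.62% in the remaining 11 libraries. The libraries also fell into 2 sets, by the share of counts at Timm23 rather than at its near-identical copy Gm10273. It was 94.6% to 98.3% in scramble libraries 2 to 4 and oAb libraries 1 and 2. It was 17.5% to 38.5% in the other 7, which include all fAb libraries. The sets split oAb, but for fAb against scramble they largely coincide with treatment and cannot be fully told apart from it. Summed TPM (a measure of transcript abundance scaled by gene length and library) of 15 microglia and macrophage markers ran from 3633 to 3945 for scramble, and from 2993 to 3277 over the 8 treated libraries, most of it at Cd68 and Csf1r. Of 13 tested, 3 rose (Cx3cr1, Ptprc and Adgre1) in both comparisons, and 6 fell for oAb and 7 for fAb, among them P2ry12 (log2 fold change -2.63 and -2.92), Trem2 (-1.96 and -2.08), C1qa (-4.42 and -4.53) and Fcrls (-2.21 and -2.27). Over all genes 52.2% were called for oAb (27% lower) and 56.3% for fAb (28.8% lower). Among the 15 markers, Sall1 had no count and Tmem119 at most 5 counts in any library, so those markers of brain microglia were absent or near absent. The neuron list summed to 0.139 to 0.716 TPM in the controls and 1.85 to 2.31 TPM in the treated libraries, nearly all of it at Map2, with Rbfox3, Snap25 and Syt1 at 0. The fibroblast list went from at most 0.0569 TPM to between 0.875 and 1.72 TPM, nearly all of it at Dcn, with Pdgfra at 0. The endothelial list went from at most 0.168 TPM to at most 0.509 TPM, with Cldn5 at 0, and the astrocyte list stayed at or under 0.456 TPM. The oligodendrocyte list ran from 26.4 to 48.1 TPM for scramble and from 13.9 to 16.7 TPM under treatment, nearly all of it at Mbp, with Mog and Olig2 at 0. The part of these lists in the results was not tested. In bulk RNA, fewer responding cells and less RNA per cell cannot be told apart.

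All 5 genes were higher after either preparation, and every treated library lay above every control for each gene. After oAb, Isg15 rose 427-fold (95% interval 327 to 557), Usp18 310.3-fold (232 to 415), Herc6 27.9-fold (20.3 to 38.3), Ube2l6 9.42-fold (7.98 to 11.1) and Uba7 6.81-fold (5.65 to 8.21). After fAb the rises were 407-fold (313 to 530.2), 304-fold (235 to 393), 27.2-fold (19.9 to 37.1), 8.95-fold (7.57 to 10.6) and 6.84-fold (5.75 to 8.15). All 5 passed the test in both comparisons, as did 52.2% of 11033 genes for oAb and 56.3% of 11074 for fAb. Of all genes, 25.2% rose and 27% fell for oAb, and 27.6% rose and 28.8% fell for fAb. The ranges of the groups lay apart for 51.2% of genes for oAb (26.3% higher) and 55% for fAb (28.9% higher). Upper quartile scaling moved the median log2 fold change of all genes from -0.07 to -0.24 for oAb and from -0.04 to -0.23 for fAb. The split between higher and lower genes then went from 2777 and 2984 to 2127 and 4015 for oAb, and from 3051 and 3184 to 2273 and 4361 for fAb. The 5 genes still rose under that scaling.

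Isg15 (chromosome 4, 156199424 to 156200818, minus strand, 2 exons) encodes the modifier itself. Its level was 4.42, 4.39, 5.13 and 3.82 TPM in scramble libraries 1 to 4. It was 1649, 1669, 1668 and 1773 TPM in the oAb libraries and 1613, 1736, 1726 and 1599 TPM in the fAb libraries. The treated libraries lay in a narrow band far above the controls, which held only 15 to 22 counts each. The gene ranked between 8115 and 9312 by TPM in the control libraries and between 73 and 81 in the treated ones. The log2 fold change was 8.74 ± 0.17 (SE) for oAb (edgeR adjusted p = 9.35e-10) and 8.67 ± 0.17 for fAb (edgeR adjusted p = 1.16e-09). By size of log2 fold change it was number 51 of 11033 genes for oAb and number 52 of 11074 for fAb. In the annotation 3.96% of its 50-base words also lie in another gene model.

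Uba7 (chromosome 9, 107975505 to 107984060, plus strand, 24 exons) encodes the activating enzyme. It stood at 11.3, 8.55, 7.01 and 7.51 TPM in scramble libraries 1 to 4. In oAb libraries 1 to 4 it stood at 50.3, 52.7, 48.6 and 53.0 TPM, and in the fAb libraries at 55.3, 54.2, 52.9 and 50.2 TPM. Scramble library 1 was the highest control, still well below the lowest treated library. The log2 fold change was 2.77 ± 0.12 for oAb (edgeR adjusted p = 8.94e-08) and 2.77 ± 0.11 for fAb (edgeR adjusted p = 6.59e-08). This was the smallest rise of the 5 in both comparisons.

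Ube2l6 (chromosome 2, 84798828 to 84810335, plus strand, 4 exons) encodes the conjugating enzyme and was the most abundant of the 5 transcripts in the controls, at 25.5, 25.5, 22.8 and 23.6 TPM. It reached 195, 202, 199.7 and 215 TPM in oAb libraries 1 to 4 and 188, 207, 206 and 197 TPM in the fAb libraries. Neither set of treated libraries came near the controls, and the 2 treated ranges overlapped. The log2 fold change was 3.24 ± 0.11 for oAb (edgeR adjusted p = 1.57e-08) and 3.16 ± 0.11 for fAb (edgeR adjusted p = 2.10e-08).

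Herc6 (chromosome 6, 57581000 to 57664632, plus strand, 23 exons) encodes the ligase. Scramble libraries 1 to 4 had 2.72, 2.02, 0.929 and 1.99 TPM, from 144, 96, 49 and 96 counts. The oAb libraries had 44.9, 44.3, 46.4 and 47.7 TPM and the fAb libraries 45.0, 50.5, 45.9 and 43.7 TPM. Scramble library 3 was the lowest control and scramble library 1 the highest, so the controls spread more, in proportion, than the treated libraries. The log2 fold change was 4.80 ± 0.20 for oAb (edgeR adjusted p = 8.99e-08) and 4.76 ± 0.20 for fAb (edgeR adjusted p = 9.51e-08). Without scramble library 3 it was 4.63 and 4.60. A predicted gene on the same strand, Gm45193, overlaps 13.7% of the exonic bases of Herc6, and 12.5% of the 50-base words of Herc6 lie in other genes, so its counts are uncertain. Counts at Gm45193 equalled 3.13% to 21.5% of those at Herc6 among control libraries and 0.609% to 8.16% among treated ones.

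Usp18 (chromosome 6, 121245906 to 121270917, plus strand, 11 exons) encodes the protease that removes ISG15. It was the least abundant of the 5 in the controls, at 1.64, 1.19, 1.26 and 0.897 TPM from 13 to 26 counts. In oAb libraries 1 to 4 it was at 321, 318, 369 and 368 TPM, and in the fAb libraries at 341, 359, 354 and 340 TPM. Within oAb, libraries 1 and 2 were lower than libraries 3 and 4, and this split falls on the boundary between the 2 library sets. The 4 fAb values lay between those 2 pairs. The log2 fold change was 8.28 ± 0.19 for oAb (edgeR adjusted p = 2.24e-09) and 8.25 ± 0.16 for fAb (edgeR adjusted p = 1.24e-09). Within the Gm10273 set it was 8.20 for oAb and 8.04 for fAb, each against 1 control library assumed to vary like the others.

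**Figure D1:**
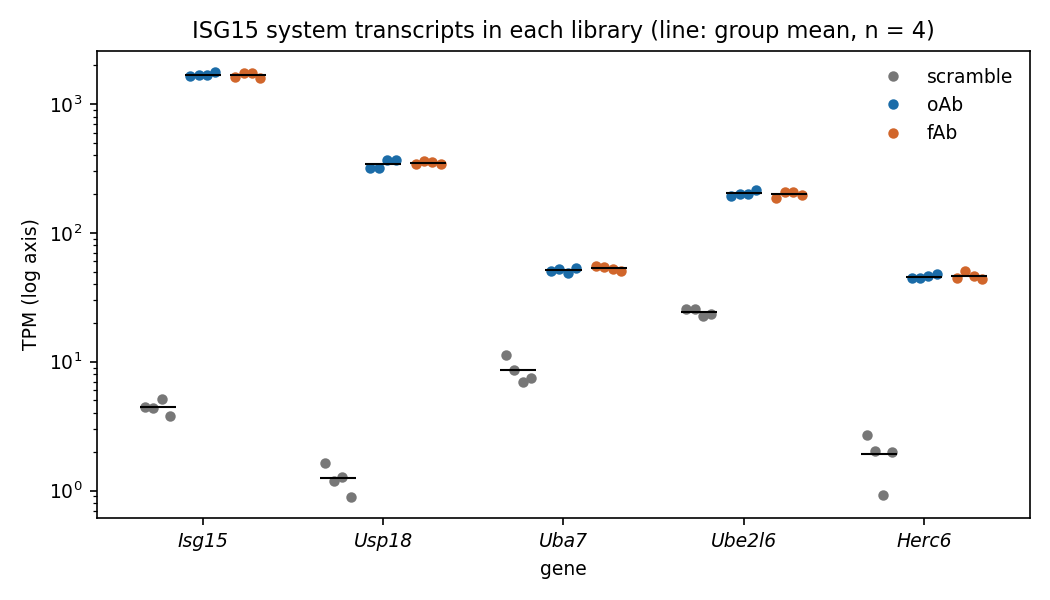
Level of each of the 5 genes in TPM, on a log axis, in every scramble, oAb and fAb library, with a line at each group mean (n = 4). All treated libraries lie above all controls for each gene, and Isg15 goes from 4.44 TPM on average to 1690 TPM in oAb and 1669 TPM in fAb.

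The order of abundance differed between resting and treated cells. In the controls the mean levels per length ran Ube2l6 (24.4 ± 1.38 TPM, mean ± SD, n = 4), Uba7 (8.58 ± 1.90), Isg15 (4.44 ± 0.536), Herc6 (1.91 ± 0.739) and Usp18 (1.25 ± 0.304). The ranges of neighbours did not overlap, except those of Herc6 and Usp18. After oAb the order was Isg15 (1690 ± 56.4 TPM), Usp18 (344 ± 28.3), Ube2l6 (203 ± 8.53), Uba7 (51.1 ± 2.09) and Herc6 (45.8 ± 1.53), and no neighbouring ranges overlapped. After fAb the order was the same, with Isg15 at 1669 ± 72.2, Usp18 at 348 ± 9.65, Ube2l6 at 199 ± 9.02, Uba7 at 53.1 ± 2.16 and Herc6 at 46.3 ± 2.95 TPM. There the ranges of Uba7 and Herc6 overlapped.

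Summed over the 5 genes, the level went from 40.6 ± 3.89 TPM in the controls to 2334 ± 87.4 TPM in oAb and 2316 ± 92.8 TPM in fAb. In the controls the conjugating and activating enzyme genes made up most of this sum, with Ube2l6 at 60.3% ± 2.89 and Uba7 at 21.0% ± 2.58. Isg15 was 11.0% ± 1.89 of it. In oAb the share of Isg15 was 72.4% ± 0.706 and that of Usp18 14.7% ± 0.856, with Ube2l6 at 8.69% ± 0.116, Uba7 at 2.19% ± 0.0939 and Herc6 at 1.96% ± 0.0279. The shares in fAb were 72.0% ± 0.274 for Isg15 and 15.1% ± 0.194 for Usp18. The modifier's transcript and that of its protease thus took the larger part of the sum in all 8 treated libraries, and the enzyme genes in all 4 controls.

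**Figure D2:**
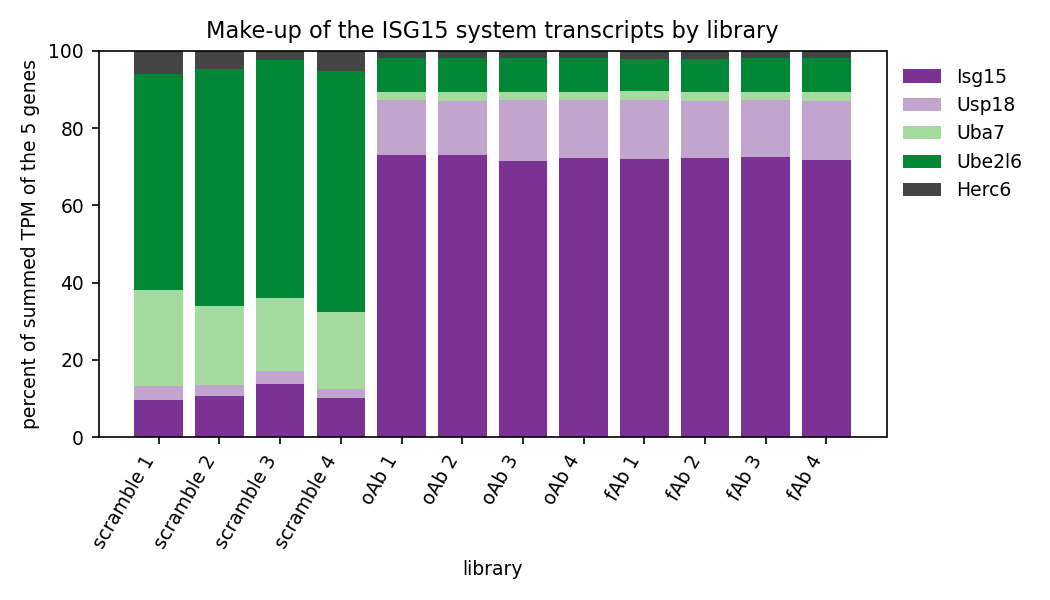
Percent of the summed TPM of the 5 genes taken by each, as stacked bars per library. Ube2l6 takes 56.0% to 62.4% in the controls, and Isg15 takes 71.5% to 73.0% in the 8 treated libraries.

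The ratio of 2 transcripts within a library does not depend on how libraries are scaled, and it was used to ask whether the partners kept pace with Isg15. Each of the 4 partners was lower per Isg15 transcript in both treatments, by exact two-sided permutation tests adjusted over 12 tests (each p = 0.0286, adjusted 0.0429, the smallest p that 4 against 4 libraries allow). Uba7 had 1.96 ± 0.484 TPM per TPM of Isg15 in the controls, 0.0303 ± 0.00102 in oAb and 0.0319 ± 0.00162 in fAb. Ube2l6 went from 5.56 ± 0.765 to 0.120 ± 0.00133 in oAb and 0.120 ± 0.00274 in fAb. Herc6 went from 0.444 ± 0.187 to 0.0271 ± 0.000543 and 0.0277 ± 0.00104. Both enzymes upstream of the ligase were therefore more abundant than Isg15 at the RNA level in every control and less abundant in every treated library.

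Usp18 stayed closest to Isg15. It had 0.281 ± 0.0619 TPM per TPM of Isg15 in the controls, with values of 0.235 to 0.371, against 0.204 ± 0.0138 in oAb and 0.209 ± 0.00344 in fAb. The control and treated ranges did not overlap, since the highest treated value was 0.221. On counts this is a log2 difference of -0.44 for oAb and -0.40 for fAb, far smaller than the -5.94 and -5.87 of Uba7. It leans on scramble library 1, the highest control. Without that library the differences were -0.30 and -0.26, and 3 against 4 libraries cannot give a p under 0.0571. The same loss of the call followed for all 4 partners when any library was left out.

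**Figure D3:**
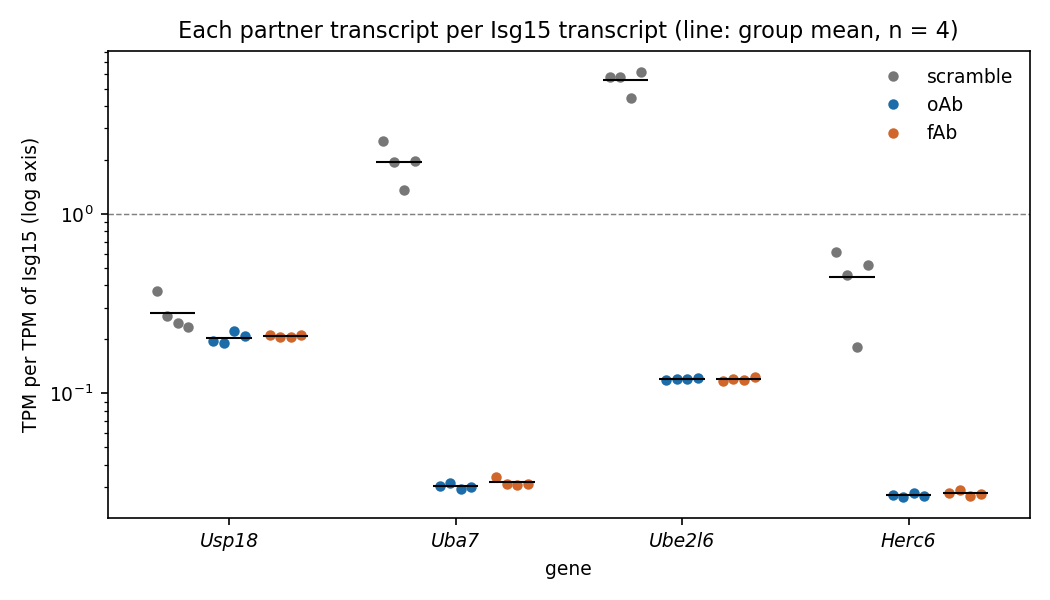
TPM of Usp18, Uba7, Ube2l6 and Herc6 per TPM of Isg15 on a log axis, for each library, with a line at each group mean (n = 4). Ube2l6 and Uba7 lie above 1 in the controls and near 0.120 and 0.0303 in oAb, while Usp18 stays between 0.190 and 0.371 in all 12 libraries.

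The genes with the most similar profiles were sought among 10556 other genes, as the smallest root mean square difference of log2 normalised counts around each gene's own mean over the 12 libraries. A prior count of 2 was added before the log, which pulls in genes near 0 in the controls, so likeness does not mean an equal fold there. Of the genes named next, Ccl12 had 0 counts in every control library, Mmp13 at most 3 and Traf1 at most 12. The values describe these libraries only. For Isg15 they were the chemokine gene Cxcl10 (0.16 log2 units), Traf1 (0.18) and the chemokine gene Ccl12 (0.19). For Usp18 they were Oasl2 (0.23), Cmpk2 (0.25) and the collagenase gene Mmp13 (0.25). The profile of Isg15 was 0.24 from that of Usp18, closer than to any other member. Ube2l6 was nearest to Sp140 (0.10), Dusp1 (0.10) and Fcgr1 (0.10), Uba7 to Adhfe1 (0.10), Aoah (0.11) and Slc31a2 (0.11), and Herc6 to Slamf7 (0.09), Ifi203 (0.12) and Serpinb9 (0.13). Uba7 and Ube2l6 were 0.24 apart, and Herc6 was 0.82 from its nearest member, Ube2l6.

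Upstream of these genes, type I interferon acts through its receptor, the kinases JAK1 and TYK2 and a transcription factor complex that contains IRF9. Of 11 measured genes of this signalling list 9 rose and 0 fell in each comparison. Over all genes tested, 25.2% rose and 27% fell for oAb, and 27.6% rose and 28.8% fell for fAb. The median log2 fold change of the list was 1.85 for oAb and 1.98 for fAb, against -0.07 and -0.04 over all genes tested. Irf7, a factor that amplifies interferon production, rose by 7.80 ± 0.13 and 7.64 ± 0.15. Irf9 rose by 2.41 ± 0.10 and 2.46 ± 0.08. The receptor gene Ifnar2 (0.06 ± 0.15 and -0.03 ± 0.16) and Irf3 (-0.13 ± 0.20 and -0.37 ± 0.18) did not pass. With upper quartile scaling Irf3 was called lower in fAb. Ifnb1, encoding interferon beta, had at most 6 counts in any library and was not tested. Its mean was 0.0586 TPM in the controls (range 0 to 0.234), 0.844 TPM in oAb (0.458 to 1.29) and 0.955 TPM in fAb (0.713 to 1.35). The treated ranges lay above that of the controls, on very few counts. The same held for 26.3% of tested genes for oAb and 28.9% for fAb.

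Of 10 other tested genes linked to ISG15, 4 rose and 2 fell in oAb and 5 rose and 2 fell in fAb, with median log2 fold changes of 0.27 and 0.32. The number called is near the 52.2% and 56.3% called over all genes, so it shows nothing about the list as a whole. Itgal, a subunit of the integrin LFA-1 that serves as receptor for secreted ISG15, rose by 3.94 ± 0.16 and 4.02 ± 0.13. Its partner subunit gene Itgb2 rose by 0.78 ± 0.08 and 0.89 ± 0.08, so both LFA-1 genes were higher. Trim25, a ligase that can also use ISG15, rose by 1.11 ± 0.11 and 1.16 ± 0.10, and Usp14, encoding a protease reported to react with ISG15, by 0.53 ± 0.11 and 0.58 ± 0.09. The ligase gene Arih1 passed only for fAb (0.47 ± 0.17, edgeR adjusted p = 0.0420) and had 0.40 ± 0.18 for oAb (edgeR adjusted p = 0.0902). The difference between the preparations did not pass for it (edgeR adjusted p = 0.779). The genes that fell also encode proteases reported to react with it, Usp2 by 1.55 ± 0.15 and 1.85 ± 0.15 on the log2 scale and Usp21 by 0.91 ± 0.15 and 0.97 ± 0.14. With upper quartile scaling the counts were 4 higher and 3 lower in each comparison.

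Proteins reported to carry ISG15 were followed through 20 tested genes, of which 5 also stand in the 2 lists just described. In oAb 14 rose and 2 fell, and in fAb 13 rose and 2 fell, with medians of 0.86 and 0.90. Over all genes tested, 25.2% rose and 27% fell for oAb, and 27.6% rose and 28.8% fell for fAb. Rsad2, encoding the antiviral enzyme viperin, rose by 9.54 ± 0.26 and 9.58 ± 0.24, and the RNA sensor gene Ddx58 by 4.80 ± 0.14 and 4.85 ± 0.11. The genes that fell were Plcg1 (-1.01 ± 0.12 and -0.78 ± 0.10) and Pcna (-0.47 ± 0.15 and -0.43 ± 0.10). Upper quartile scaling gave 12 higher and 3 lower for oAb and 12 and 4 for fAb.

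Log2 fold changes in the parallel machinery of other modifiers were smaller than those of the 5 genes. Ube2l3 encodes the closest relative of UBE2L6 and serves ubiquitin. Its log2 fold change was 0.34 ± 0.12 for oAb (edgeR adjusted p = 0.0405) and 0.27 ± 0.12 for fAb (edgeR adjusted p = 0.0866). In TPM, Ube2l6 was 18.6% ± 1.70 of Ube2l3 in the controls, 137% ± 5.80 in oAb and 137% ± 5.23 in fAb. Uba1, the main activating enzyme of ubiquitin, rose by 0.41 ± 0.11 and 0.40 ± 0.10, and Uba7 went from 2.98% ± 0.589 of its level to 15.3% ± 1.17 in oAb and 15.4% ± 1.10 in fAb. Of 9 other activating enzyme genes 4 rose, among them Uba1, Uba6 and Nae1, and 2 fell (Sae1 and Atg7) in oAb. In fAb 5 rose, with Uba3 added, and 3 fell, with Mocs3 added. Of 20 other conjugating enzyme genes 8 rose and 4 fell in oAb and 7 rose and 4 fell in fAb. For both kinds of enzyme the lists are small, and 52.2% and 56.3% of all genes were called, so these counts are not a result about the enzymes as groups. The largest rise among the conjugating enzymes was that of Ube2e2, at 1.60 ± 0.12 and 1.63 ± 0.10, below the 2.77 of Uba7 in both comparisons. With upper quartile scaling the activating enzymes gave 2 higher and 3 lower in each comparison, and the conjugating enzymes 6 and 5.

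Herc6 has relatives in the HERC ligase family. In edgeR 0 of the 4 other HERC genes tested passed in either comparison, 0 also at an unadjusted p under 0.05 and 0 by DESeq2 or limma voom. Over all genes 52.2% were called for oAb and 56.3% for fAb. With so few genes, this count is not a result about the family. The log2 fold changes of these 4 ran from -0.10 to 0.15 for oAb and from 0.09 to 0.18 for fAb. With SE of 0.16 to 0.28, changes of modest size would not have passed. The estimates for Herc3 in oAb and for all 4 in fAb turned negative with upper quartile scaling. Herc3, which lies beside Herc6 in its subfamily, was at 6.94 TPM in the controls, 6.54 in oAb and 6.92 in fAb. Herc6 was 28.1% ± 3.29 of Herc3 in the controls and 705% ± 80.0 of it in oAb.

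Ubiquitin and the other modifiers were followed too. Of 14 tested genes for ubiquitin and other modifiers, 4 rose in oAb, among them the ubiquitin gene Ubb (0.55 ± 0.14) and Ufm1 (0.81 ± 0.08), and Map1lc3b fell by 0.57 ± 0.12 on the log2 scale. In fAb 5 rose, with Sumo2 added, and 2 fell, with Fau added. The list medians were -0.03 and -0.09. Over all genes 52.2% were called for oAb and 56.3% for fAb, so these counts are not a result about the modifiers as a group. Upper quartile scaling gave 3 higher and 4 lower for oAb and 3 and 5 for fAb. Ubd, encoding the interferon-inducible modifier FAT10, had no count in any library.

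**Figure D4:**
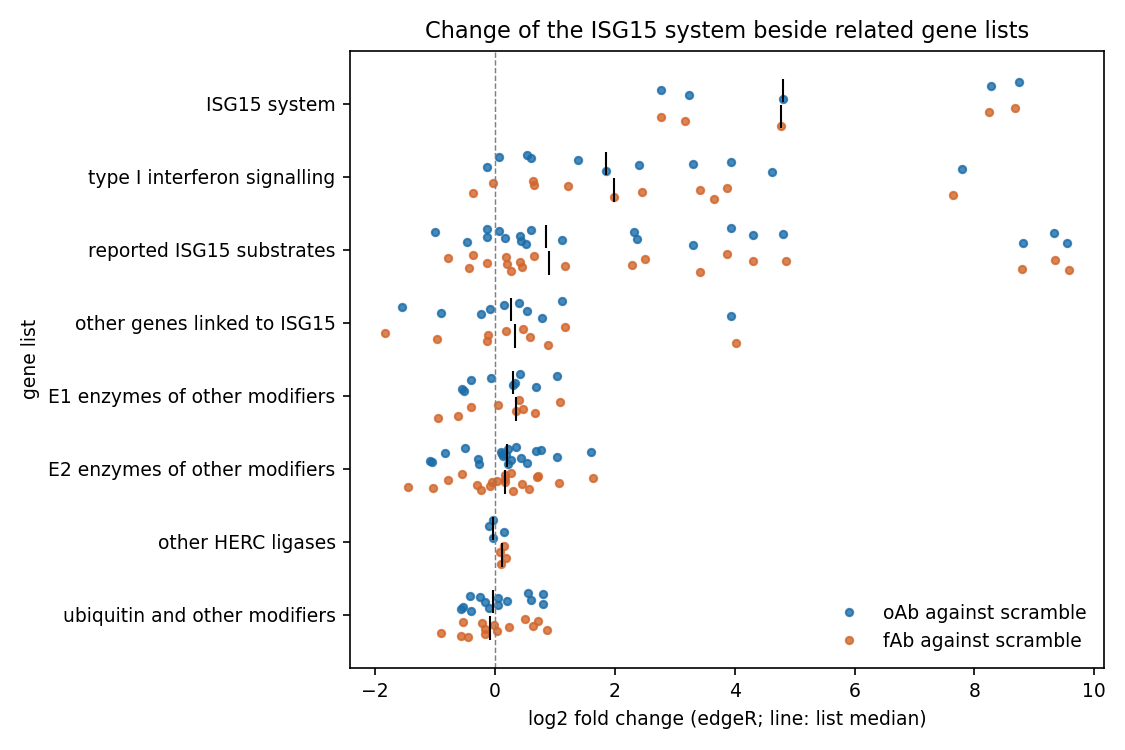
Log2 fold change of each tested gene (points) in oAb and fAb against scramble, by gene list, with a line at each list's median. The 5 ISG15 system genes lie between 2.77 and 8.74, while the lists of other modifiers and their enzymes lie between -1.46 and 1.63.

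The direct comparison of fAb with oAb asks whether the 2 preparations differed. In edgeR's quasi-likelihood test 0 of the 5 genes passed and 0 of 10878 genes in all (0% called), with 0 of the 5 and 1391 of all genes at an unadjusted p under 0.05. The ranges of oAb and fAb lay apart for 6.24% of all genes (2.98% higher in fAb). DESeq2 called 16 genes and limma voom 0, none of them among the 5. All 5 estimates on TMM-scaled counts were slightly negative: Isg15 -0.10 ± 0.05, Ube2l6 -0.11 ± 0.06, Herc6 -0.07 ± 0.05, Usp18 -0.07 ± 0.07 and Uba7 -0.03 ± 0.05. The 95% intervals of the fold allowed 0.858 to 1.01 for Isg15, 0.849 to 1.02 for Ube2l6, 0.880 to 1.03 for Herc6, 0.862 to 1.06 for Usp18 and 0.910 to 1.06 for Uba7. All 5 intervals thus lie between 0.849 and 1.06. The direction depends on the measure, since mean TPM was higher in fAb for Usp18, Uba7 and Herc6 and lower for Isg15 and Ube2l6. The ratios to Isg15 did not pass between the preparations either (exact permutation, adjusted p = 0.229 to 0.771). Within the Gm10273 set, with 4 fAb and 2 oAb libraries, Usp18 differed by -0.17 on the log2 scale (edgeR adjusted p = 0.442, with 0.296 to 0.992 over all alternatives).

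**Figure D5:**
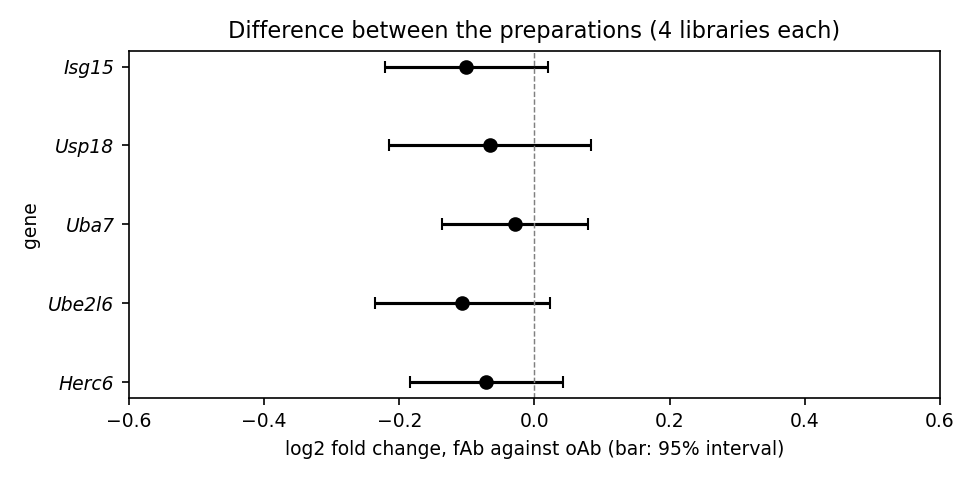
Log2 fold change of fAb against oAb for each of the 5 genes (points) with its 95% interval (bars), from 4 libraries a group. The estimates lie between -0.11 and -0.03 and every interval includes 0.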

How the data were processed

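Libraries were made from 2 ug of total RNA with a stranded mRNA kit, per the labels' protocols. The submitters' processing notes name mm10, and column names in the file headers call the reads trimmed. No aligner, counter or strand setting is given in the sources used here. The deposited files of the authors are 2 tables with whole-number counts per gene, RPKM, TPM and columns named CPM, which hold a signal scaled to a normalised library size, per the file headers and sums. Counts were tested and TPM served for levels, while RPKM and the signal columns were not used. Tables were joined by gene identifier, and control values were identical in both.

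Groups came from the titles. Each comparison was fitted on its 8 libraries in edgeR 4.0.16 under R 4.3.3 (filterByExpr with a minimum count of 10, TMM, robust quasi-likelihood F test, two-sided, Benjamini-Hochberg over all genes, threshold 0.05). SE is the log2 fold change over the root of F. Ratios to Isg15 were tested on log2 counts with 0.5 added, by exact permutation in SciPy 1.17.1. The named genes are the 5 members, up to 3 genes with the smallest adjusted p of each other list, genes that make up a small count, and the 3 most similar profiles of each member. The relatives Ube2l3, Uba1 and Herc3 were added for comparison after values were seen. The members and lists were chosen with earlier results of these data known, and so were the library sets. Alternatives were DESeq2 1.42.0 and its size factors, upper quartile scaling, limma 3.58.1 voom, leaving genes with low counts in, a filter at a mean of 2 CPM, a replicate block, all 12 libraries, a threshold of 0.01, leaving out each library, other pseudocounts and the library set. The tests were also run on simulated counts, and the outcome of that check is not reported here. Exon overlaps and shared 50-base words came from GENCODE M21. A few genes of the lists and 1 motif are not reported here.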

Additional observations from a re-analysis of the deposited data

Results flagged for a closer look

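In groups of 4 libraries, 3 values of the 5 genes stood far from the other 3 of their group, out of 30 groups examined (TPM and normalised CPM), where chance gives about 1 in 20. Isg15 in oAb library 4 was at 1773 TPM against 1649 to 1669 in the other oAb libraries. In normalised CPM, scramble library 3 was high for Isg15 (1.59 against 0.931 to 1.02) and for Ube2l6 (18.7 against 15.2 to 15.7). That library also had the highest ribosomal protein share, and its part in these values was not tested.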

How the results depend on the processing

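Each of the 5 genes kept its direction and its call against scramble in all 195 recomputations. After oAb, log2 fold changes ran over 8.57 to 8.99 for Isg15, 8.11 to 8.38 for Usp18, 2.56 to 2.86 for Uba7, 3.06 to 3.41 for Ube2l6 and 4.50 to 4.97 for Herc6. Counts over all genes moved more. This was so with the library sets, an alternative chosen after seeing the data. Within the Timm23 set oAb had 1816 lower and 3792 called genes. With the library set as a term fAb had 2020 higher, 1824 lower and 3844 called genes. Without scramble library 3, called genes rose from 5761 to 7174 for oAb and from 6235 to 7598 for fAb. With any other library left out instead, they ran from 4962 to 5822 for oAb and from 5517 to 6522 for fAb. The 52.2% and 56.3% of genes called thus depend in part on scramble library 3. DESeq2 gave 4 higher, 12 lower and 16 called genes between fAb and oAb. The cause was not tested.

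Same-numbered libraries did not deviate together in every pair (correlations of -0.25 to 0.08 for oAb with scramble, 0.09 to 0.20 for fAb with scramble and -0.23 to 0.24 for fAb with oAb), so the numbers were not taken to pair them. With the replicate block 5081, 6292 and 0 genes were called in the 3 comparisons. Paired by number, the log2 ratios to Isg15 after oAb and fAb stayed at -0.44 and -0.40 for Usp18, -5.94 and -5.87 for Uba7, -5.48 and -5.49 for Ube2l6 and -3.87 and -3.84 for Herc6. With 4 pairs the exact permutation p cannot go under 0.125, so none passed. With any library left out none passed either, since the smallest p is then 0.0571. The ratios after oAb and fAb then ran over -0.52 to -0.30 and -0.48 to -0.26 for Usp18, -6.10 to -5.80 and -6.03 to -5.73 for Uba7, -5.59 to -5.43 and -5.59 to -5.44 for Ube2l6 and -4.25 to -3.66 and -4.22 to -3.63 for Herc6. Between fAb and oAb, 2 values near 0 changed sign. The log2 fold change of Uba7 ran from -0.046 to 0.0012, positive without oAb library 2, and the Ube2l6 ratio from -0.020 to 0.0070, positive without fAb library 1. With 13 to 26 counts per control library, the counts of Isg15 and Usp18 limit the precision of their folds. Of the genes tested, 26.3% lay wholly above the controls for oAb and 28.9% for fAb. Ifnb1 was likewise higher in every treated library than in any control, but it was not tested. Its few counts give no reliable fold, and small changes in it were not detectable at this depth.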
